A study of Mus musculus with 6 samples.

Results

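The JAK kinases and STAT factors were examined in mouse cells that had been cultured in adipocyte differentiation medium with or without Nelfb, a subunit of the negative elongation factor that holds RNA Polymerase II near gene starts. The members were chosen by gene symbol, namely Jak1, Jak2, Jak3, Stat2, Stat3, Stat4, Stat5a, Stat5b and Stat6. Of these 9 genes, 8 had a row in the deposited table of 17924 genes, while Stat4 was not analysed here. Fibroblasts were taken from the dorsal dermis of postnatal day 0 mice and kept in the differentiation medium for 14 days. CTL mice carried Nelfb fl/wt or Nelfb wt/wt alleles, Nelfb KO mice carried Nelfb fl/fl, and both groups carried 1 copy of Pdgfra-Cre, so that Cre itself did not differ between the groups. Pdgfra drives Cre in dermal fibroblasts and their precursors, and cells in the dish that never expressed Pdgfra would keep Nelfb. Each group had 3 biological replicates, which are called replicates 1, 2 and 3, and where the study does not say which mice or litters gave each replicate the p-values measure only the spread between these libraries.

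JAK kinases sit on the inner tails of cytokine receptors and are switched on when a ligand brings the receptor chains together. They phosphorylate the receptor and then a STAT protein, which pairs with another STAT, enters the nucleus and binds DNA. In the adipose lineage, leptin and cytokines of the interleukin 6 family signal mainly through Jak1, Jak2 and Stat3, growth hormone through Jak2 and the Stat5 proteins, and interleukins 4 and 13 through Stat6. Stat2 serves type I interferon, and Jak3 works with the common gamma chain of interleukin receptors and is best known from lymphocytes.

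Expression is stated in CPM (counts per 1e+06 reads on all genes of the table), with no division by length. Depth lay between 17.2 and 29.4 times 1e+06 reads per library, and 3 reads, the floor of detection, were worth 0.102 to 0.175 CPM. The 16252 genes whose mean reached 10 reads were tested with limma and p was adjusted by Benjamini-Hochberg over all of them. A gene was called when the adjusted p was at most 0.05 and the change at least 2-fold. Nelfb fell in the libraries labelled Nelfb KO, by 1.99 on the log2 scale (SE 0.22, limma, adjusted p = 0.0050). The libraries did not separate by genotype alone. The first principal component held 59.9% of the variance and the second 27.7%, and on the second CTL replicate 3 and Nelfb KO replicate 1 lay far from the other replicates of their groups.

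The labels call the cells mouse adipocytes, and 10 adipocyte markers were all present. Their summed level was 25500 to 40620 CPM in the CTL libraries and 16670 to 25240 CPM in Nelfb KO libraries. Markers of fibroblasts were also high, with 7 genes summing to 3831, 4358 and 13940 CPM in the CTL libraries and to 6625, 20640 and 23130 CPM in Nelfb KO libraries, so that the groups overlapped. Macrophage and other myeloid markers moved with the genotype. Their 16 genes summed to 827, 439.1 and 229.2 CPM in replicates 1, 2 and 3 of CTL and to 6933, 2235 and 3770 CPM in Nelfb KO replicates 1, 2 and 3. Of the 15 myeloid markers tested, 14 were called higher in Nelfb KO cells (7.58% of all genes tested were) and Cd68 was not (limma, adjusted p = 0.16), with a list median of 2.98 on the log2 scale. Aif1, 1 of the 14, was tested only through the Nelfb KO libraries, and without it 13 of 14 were called, with a median of 2.96. The defining myeloid genes were present in every library. Adgre1 was at 9.55 to 29.3 CPM in the CTL libraries and 80.1 to 224 CPM in Nelfb KO libraries, and Lyz2 was at 69.5 to 294 CPM and 911 to 3038 CPM. Only 1 of 9 T and NK cell markers, Lck, had a row, and it reached at most 0.616 CPM. Endothelial markers summed to at most 21.3 CPM and mast cell markers to at most 10.4 CPM. In RNA from whole cultures, more cells of a type and more RNA per cell cannot be told apart.

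**Figure D1:**
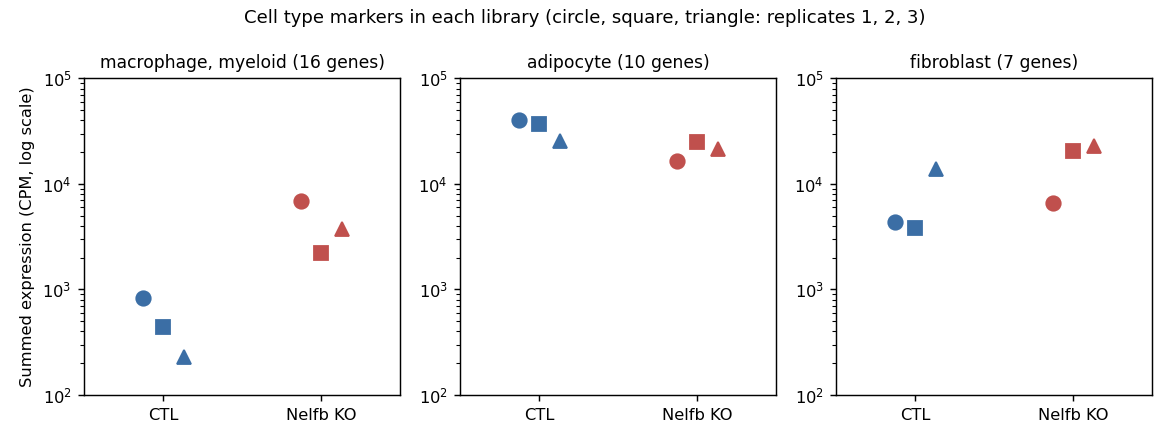
Summed expression of the macrophage and other myeloid (left), adipocyte (middle) and fibroblast (right) markers in CPM on a log axis, with 1 point for each of the 3 CTL (blue) and 3 Nelfb KO (red) libraries. The myeloid sum was highest in Nelfb KO replicate 1, at 6933 CPM, and the fibroblast sum was highest in Nelfb KO replicates 2 and 3.

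Jak1 rose in Nelfb KO cells and was the only member that was called. Jak2 rose by slightly less than the 2-fold limit, and Jak3 was low and overlapped between the groups. Of the STAT members, Stat2 and Stat3 were higher in all 3 Nelfb KO libraries than in any CTL library, but neither passed the test, and Stat5a, Stat5b and Stat6 overlapped. Of the 8 members tested, 1 was called higher (7.58% of all genes tested were called higher) and 0 were called lower (3.64%), where 11.2% of all genes were called in either direction. An adjusted p of at most 0.05, with no limit on the fold, was reached by 2 members, Jak1 and Jak2, and by 15.8% of all genes. The groups did not overlap at 4 members, all higher in Nelfb KO cells, compared with 22.0% of all genes that lay apart in that direction. No member lay apart in the other direction, as 16.1% of all genes did. The median log2 fold change of the 8 members was 0.31, and that of all genes tested was 0.07.

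**Figure D2:**
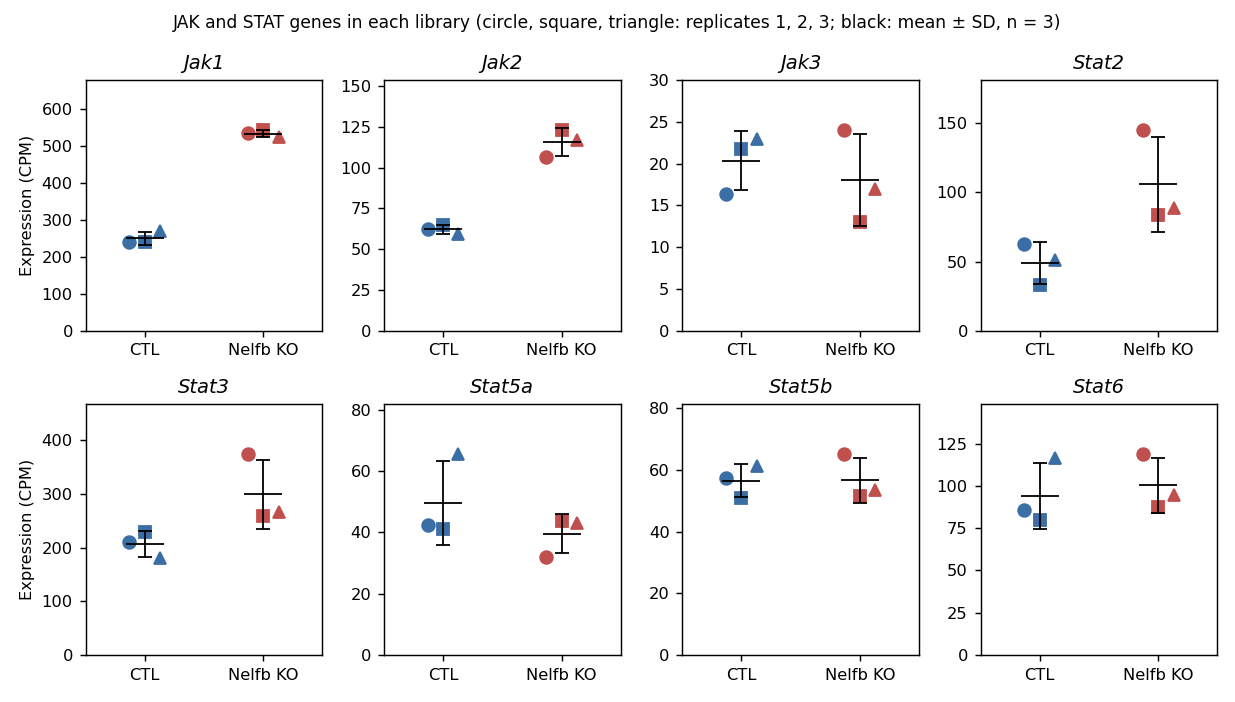
Expression in CPM of the 8 JAK and STAT genes in the 3 CTL (blue) and 3 Nelfb KO (red) libraries, 1 panel for each gene with its own axis from 0, with black lines for the mean ± SD. The groups were apart at Jak1, Jak2, Stat2 and Stat3, and Nelfb KO replicate 1 had the highest value of all 6 libraries at 5 of the 8 genes.

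Jak1, a kinase shared by the receptors of the interleukin 6 family, the interferons and the common gamma chain, lies on the minus strand of chromosome 4 (ENSMUSG00000028530, GRCm38, 101152367 to 101265282). Its level was 239.0, 239.6 and 268.9 CPM in replicates 1, 2 and 3 of CTL and 533.4, 542.8 and 522.5 CPM in Nelfb KO replicates 1, 2 and 3. All 3 Nelfb KO libraries were near each other and well above all CTL libraries. The myeloid sum of the same Nelfb KO libraries ranged from 2235 to 6933 CPM, and its part in the Jak1 values was not tested. The mean rose from 249.2 ± 17.1 CPM to 532.9 ± 10.2 CPM (SD, n = 3), and the log2 fold change was 1.10 (SE 0.14, 95% interval 0.77 to 1.43, limma, adjusted p = 0.0068). In the fits without 1 library, the log2 fold change stayed between 1.07 and 1.16 and the adjusted p between 0.0069 and 0.049, so that Jak1 was called in all 6 of them.

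Jak2, the kinase of the growth hormone and leptin receptors, lies on the plus strand of chromosome 19 (ENSMUSG00000024789, 29251828 to 29313080). It was measured at 62.4, 64.7 and 59.4 CPM in replicates 1, 2 and 3 of CTL and at 106.5, 123.1 and 117.2 CPM in Nelfb KO replicates 1, 2 and 3. Here Nelfb KO replicate 1 was the lowest of its group, and the groups were apart. The mean rose from 62.2 ± 2.65 CPM to 115.6 ± 8.42 CPM (SD, n = 3), a 1.86-fold change (log2 0.89, SE 0.12, 95% interval 0.60 to 1.18, limma, adjusted p = 0.0081). The interval reached past a 2-fold change, and the gene stayed below the 2-fold limit in all 6 fits without 1 library. Without Nelfb KO replicate 3 its adjusted p was 0.056, and it was at most 0.05 in the other 5 fits.

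The increases of Jak1 and Jak2 were compared by their ratio within each library, which does not depend on how libraries are scaled. The log2 ratio of Jak1 to Jak2 in CPM was 1.94, 1.89 and 2.18 in CTL replicates 1, 2 and 3 and 2.32, 2.14 and 2.16 in Nelfb KO replicates 1, 2 and 3. It differed by 0.21 between the group means, the groups overlapped, and an exact permutation test gave p = 0.30, where the smallest p with 3 against 3 libraries is 0.10. That Jak1 was called and Jak2 was not thus came with a difference between their changes that was within the spread of the libraries, in a test that could not have passed 0.05.

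Jak3 lies on the plus strand of chromosome 8 (ENSMUSG00000031805, 71676296 to 71690575). Its level was 16.3, 21.7 and 23.0 CPM in the CTL libraries and 24.0, 13.1 and 17.01 CPM in Nelfb KO replicates 1, 2 and 3. The highest and the lowest of the 6 libraries were both Nelfb KO libraries. The log2 fold change was -0.20 (SE 0.26, 95% interval -0.83 to 0.43, limma, adjusted p = 0.63). It was -0.43 without Nelfb KO replicate 1. Of the 50-base stretches in Jak3 transcripts, 6.53% also occur in transcripts of its neighbour Insl3, and reads there could be counted for either gene. No such stretch of Jak1 or Jak2 occurs in another gene.

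Stat2, the partner STAT of type I interferon signalling, lies on the plus strand of chromosome 10 (ENSMUSG00000040033, 128270559 to 128292849). Its level was 62.6, 32.8 and 51.0 CPM in the CTL libraries and 145.3, 83.9 and 88.5 CPM in Nelfb KO replicates 1, 2 and 3. The spread within each group was wide, with CTL replicate 2 low and Nelfb KO replicate 1 high, yet the groups did not overlap. The log2 fold change was 1.12 (SE 0.31, 95% interval 0.38 to 1.86), similar in size to that of Jak1, with an adjusted p of 0.056 (limma). It was 1.32 without CTL replicate 1 and 0.86 without CTL replicate 2, and the adjusted p lay between 0.074 and 0.16 in the fits without 1 library. Stat2 was called, with an adjusted p of 0.022 (limma), once a term for the split of the libraries on the second principal component was added, a fit chosen after the data were seen. With both CTL replicate 3 and Nelfb KO replicate 1 left out its adjusted p was 0.028 and its log2 fold change 0.93, under the 2-fold limit. That fit was also chosen after the data were seen. Nelfb KO replicate 1 was also the library with the highest myeloid sum, and the part of the myeloid genes in the Stat2 values was not tested.

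Stat3, the main STAT of the interleukin 6 family and of leptin, lies on the minus strand of chromosome 11 (ENSMUSG00000004040, 100885098 to 100939540). It was measured at 210.8, 229.0 and 180.9 CPM in the CTL libraries and at 374.2, 259.7 and 265.8 CPM in Nelfb KO replicates 1, 2 and 3. The groups did not overlap, but Nelfb KO replicates 2 and 3 were much nearer to the CTL libraries than replicate 1 was. The log2 fold change was 0.52 (SE 0.20, 95% interval 0.05 to 0.99, limma, adjusted p = 0.12). It was 0.35 without Nelfb KO replicate 1. With the term for the second principal component it was 0.65 (limma, adjusted p = 0.0044), and with both CTL replicate 3 and Nelfb KO replicate 1 left out it was 0.26 (limma, adjusted p = 0.040), under 2-fold in both fits. Both fits were chosen after the data were seen, and 16.88% and 27.05% of all genes were called in them, against 11.2% in the main fit.

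Stat5a and Stat5b, the closely related STATs of growth hormone and prolactin, lie next to Stat3 on chromosome 11. Stat5a (ENSMUSG00000004043, plus strand, 100859351 to 100885169) was at 42.4, 41.1 and 65.4 CPM in the CTL libraries and at 32.1, 43.6 and 43.1 CPM in Nelfb KO replicates 1, 2 and 3. Stat5b (ENSMUSG00000020919, minus strand, 100780731 to 100850724) was at 57.4, 50.9 and 61.4 CPM in the CTL libraries and at 65.1, 51.5 and 53.5 CPM in Nelfb KO replicates 1, 2 and 3. Both genes overlapped between the groups. In Nelfb KO replicate 1 Stat5a was at its lowest and Stat5b at its highest of all 6 libraries. For Stat5a the log2 fold change was -0.31 (SE 0.23, 95% interval -0.86 to 0.25, limma, adjusted p = 0.41), and it was -0.09 without CTL replicate 3. With the term for the second principal component it was -0.49 (limma, adjusted p = 0.0099), and it was 0.05 with CTL replicate 3 and Nelfb KO replicate 1 both left out (limma, adjusted p = 0.59). Both fits were chosen after the data were seen, with 16.88% and 27.05% of all genes called in them. For Stat5b the estimate was 0.00 (SE 0.15, 95% interval -0.36 to 0.36, limma, adjusted p = 1.0), an interval that reached a 2-fold change in neither direction.

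Some reads of these neighbours may have been assigned to the wrong gene. Stat5a and Stat5b share 608 stretches of 50 bases, which are 8.21% of those in Stat5a and 11.0% of those in Stat5b. The ends of Stat5a and Stat3 overlap by 72 bases on opposite strands, and whether the counting used the strand is not given in the sources used here. The log2 ratio of Stat5a to Stat5b was -0.44, -0.31 and 0.09 in CTL and -1.02, -0.24 and -0.31 in Nelfb KO replicates 1, 2 and 3 (exact permutation test, p = 0.50). By contrast, the log2 ratio of Stat3 to Stat5b was 1.88, 2.17 and 1.56 in CTL and 2.52, 2.33 and 2.31 in Nelfb KO replicates 1, 2 and 3. This ratio was higher in all 3 Nelfb KO libraries, with a difference of 0.52 between the means, and reached p = 0.10, the smallest that the exact permutation test can give here.

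Stat6, the STAT of interleukins 4 and 13, lies on the plus strand of chromosome 10 (ENSMUSG00000002147, 127642986 to 127660957). Its level was 85.6, 79.8 and 116.4 CPM in the CTL libraries and 118.7, 87.6 and 94.7 CPM in Nelfb KO replicates 1, 2 and 3. CTL replicate 3 and Nelfb KO replicate 1 were alike and above the other 4 libraries, so that the groups overlapped. The log2 fold change was 0.10 (SE 0.20, 95% interval -0.37 to 0.58, limma, adjusted p = 0.76).

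**Figure D3:**
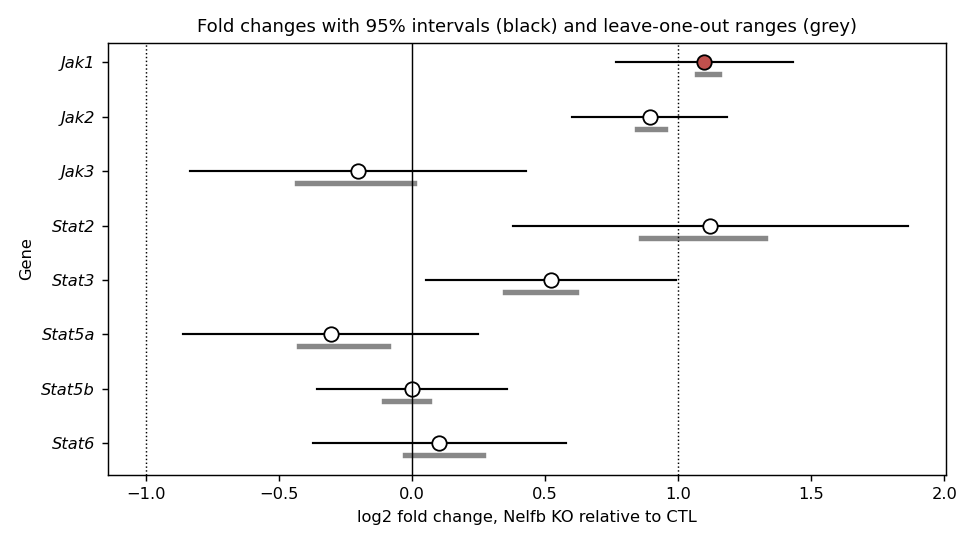
Log2 fold change of each member in Nelfb KO relative to CTL cells (circles, red where called) with the 95% interval of the limma fit (black lines) and the range of the estimate over the fits without 1 library (grey bars), where dotted lines mark a 2-fold change. The interval of Jak1 runs from 0.77 to 1.43 and that of Jak2 from 0.60 to 1.18, while those of Jak3, Stat5a, Stat5b and Stat6 include 0.

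Levels of different genes were compared after division by the length of the merged exons, in CPM per kilobase. In CTL cells Jak1 was the most abundant member, at a mean of 34.5 CPM per kilobase, followed by Stat3 at 21.7, Stat6 at 21.3 and Jak2 at 12.4 CPM per kilobase. Stat5b at 10.2, Stat2 at 8.24, Stat5a at 6.96 and Jak3 at 3.80 CPM per kilobase were lower. Of the neighbours in this order, Stat3 and Stat6, Stat5b and Stat2, and Stat2 and Stat5a overlapped between libraries, while all other neighbours were apart.

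In Nelfb KO cells Jak1 stood further above the rest, at 73.7 CPM per kilobase, followed by Stat3 at 31.5 and Jak2 at 23.0 CPM per kilobase. Stat6 was at 22.8, Stat2 at 17.9, Stat5b at 10.2, Stat5a at 5.55 and Jak3 at 3.37 CPM per kilobase. Jak2 and Stat6, and Stat6 and Stat2, overlapped between libraries. Jak2 thereby moved from the fourth to the third place and Stat2 from the sixth to the fifth.

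The summed level of the 3 JAK members was 48.5 to 53.3 CPM per kilobase in CTL and 98.8 to 102.0 CPM per kilobase in Nelfb KO libraries. Jak1 made up 66.2% to 69.8% of this sum in CTL and 73.2% to 74.2% in Nelfb KO libraries, and Jak3 made up 6.29% to 8.11% in CTL and 2.39% to 4.52% in Nelfb KO libraries. The 5 STAT members summed to 62.6 to 74.3 CPM per kilobase in CTL and 76.7 to 107.0 CPM per kilobase in Nelfb KO libraries. Within this sum Stat2 took 8.84% to 15.4% in CTL and 18.5% to 22.9% in Nelfb KO libraries, whereas Stat5b took 14.7% to 15.1% and 11.0% to 12.1%. A share depends on the other members of its sum, and the levels of Jak3 and Stat5b themselves overlapped between the groups. The JAK sum, most of which was Jak1, differed little across the Nelfb KO libraries, and the STAT sum was highest in Nelfb KO replicate 1.

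**Figure D4:**
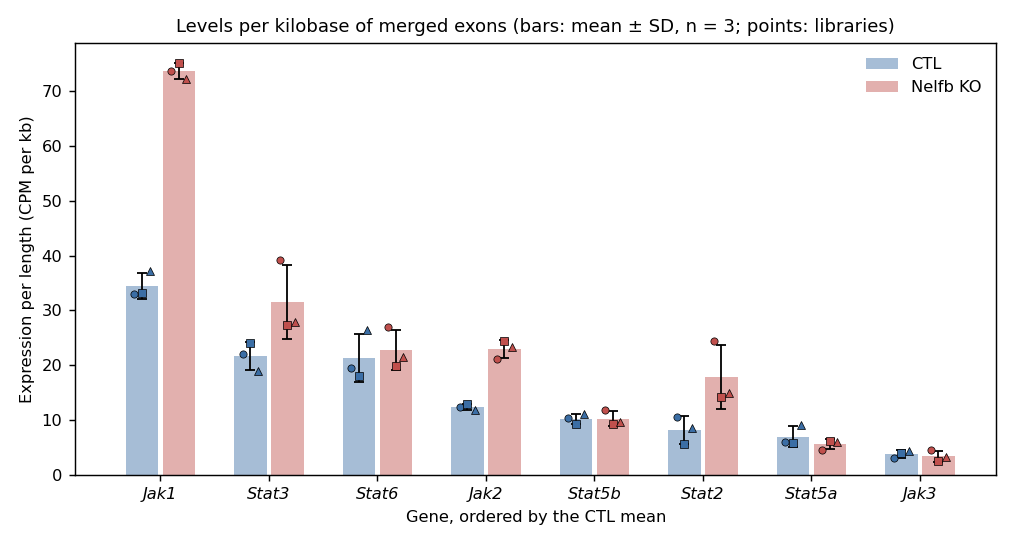
Expression per length of the 8 members in CPM per kilobase of merged exons, ordered by the CTL mean, with bars for the mean of 3 CTL (blue) or 3 Nelfb KO (red) libraries, error bars for the SD and points for the libraries. Jak1 was the most abundant member in both groups, at 34.5 and 73.7 CPM per kilobase, and Jak3 the least, at 3.80 and 3.37 CPM per kilobase.

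The sequences before the starts of the 4 members whose groups were apart are shown, since Nelfb acts near gene starts and since STAT proteins bind DNA motifs that may lie in such windows. Each window is the 250 bases upstream of the RefSeq start (GRCm38.p6), written 5′ to 3′ on the strand of the gene. For Jak1, whose gene as positioned above starts further upstream, the last 59 bases of the window lie inside the gene, and only the 191 bases before it are printed. Capitals mark the GC box (GGGCGG), a motif of general promoters, and the core of the interferon-stimulated response element (GAAA, then NN, then GAAA), each on either strand.
Jak1, chr4:101265283-101265473, minus strand: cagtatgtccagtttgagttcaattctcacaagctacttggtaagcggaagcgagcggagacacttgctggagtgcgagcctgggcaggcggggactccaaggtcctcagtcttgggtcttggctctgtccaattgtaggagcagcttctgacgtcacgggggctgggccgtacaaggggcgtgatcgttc
Jak2, chr19:29251553-29251802, plus strand: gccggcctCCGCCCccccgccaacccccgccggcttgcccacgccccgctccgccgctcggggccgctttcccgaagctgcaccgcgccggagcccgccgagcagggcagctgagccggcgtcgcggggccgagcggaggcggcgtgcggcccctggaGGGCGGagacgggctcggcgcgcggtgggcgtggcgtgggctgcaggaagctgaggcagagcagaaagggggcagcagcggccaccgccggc
Stat2, chr10:128270248-128270497, plus strand: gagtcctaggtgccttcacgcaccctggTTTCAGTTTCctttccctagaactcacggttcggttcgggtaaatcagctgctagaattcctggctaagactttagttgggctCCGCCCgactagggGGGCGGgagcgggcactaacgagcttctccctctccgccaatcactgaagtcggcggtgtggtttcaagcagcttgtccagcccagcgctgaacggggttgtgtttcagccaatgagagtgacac
Stat3, chr11:100939541-100939790, minus strand: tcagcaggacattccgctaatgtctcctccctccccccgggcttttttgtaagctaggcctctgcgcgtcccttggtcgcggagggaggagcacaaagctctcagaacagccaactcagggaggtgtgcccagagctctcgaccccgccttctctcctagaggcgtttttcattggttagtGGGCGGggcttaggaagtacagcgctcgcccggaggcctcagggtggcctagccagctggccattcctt

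All 9 members matched RefSeq by symbol, with 12 such windows among them. The GC box was found in 1 place before Stat3 and in 2 places before Jak2 and Stat2. It was also found in windows of Jak3, Stat5a and Stat5b, whose groups overlapped, so that 7 of the 12 windows held it. The Stat5a window that held it lay wholly inside the gene as positioned above, and so did 143 bases of the Stat5b window that held it. The single one in the Jak1 window, 43 bases from the RefSeq start, fell in the stretch inside the gene and is not printed. Of all 32851 windows of this length, 32.7% held it. The interferon element core was found before Stat2, on the minus strand and with 212 bases between the match and the start. It was also found in a window of Stat4 that lay wholly inside the gene as annotated, and 2.98% of all windows held it. The gamma-activated sequence that STAT homodimers bind (TTCNNNGAA, the same on both strands) was found in none of the 12 windows, and 7.02% of all windows held it. A CCAAT box (CCAAT) stood before Jak1, Stat2 and Stat3 but not before Jak2. It was also found in a window of Stat4, so that 4 of the 12 windows held it, a share near the 33.8% of all windows. No member's window held TATAAA, against 12.4% of all windows. The Jak2 window had a GC content of 80.8%, and those of Jak1, Stat3 and Stat2 had 61.2%, 60.8% and 56.8%. These matches are letters in a window and not binding sites.

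The rest of the pathway was described with 13 lists by role, which held 138 genes. Of these, 106 were in the table and 99 were tested, with 29 called higher (29.29%, against 7.58% of all genes tested) and 2 called lower (2.02%, against 3.64%) in Nelfb KO cells. The median log2 fold change of the 99 genes was 0.77, against 0.07 for all genes. Ligands, receptors, negative regulators and reported target genes all included genes that rose, many of them by more than any JAK or STAT member. These counts depended on single libraries. The number of calls was 7 without Nelfb KO replicate 3, 12 without CTL replicate 2, 14 without Nelfb KO replicate 2 and 16 without CTL replicate 1. Of all genes, 2.6%, 4.7%, 5.8% and 5.3% were called in these fits, against 11.2% in the main fit. The number was 34 without CTL replicate 3 and 31 without Nelfb KO replicate 1, with 15.2% and 12.1% of all genes called. Of the 31 called genes, 7 were called in all 6 such fits, namely Il6, Csf2rb, Socs5, Ptpn1, Ptpn6, Igf1 and Ccl11. The other 24 lost the call in at least 1 of them. Of the 99 genes, 8 passed the filter on low values only through the Nelfb KO libraries and so had to differ, namely Il6, Il11, Tslp, Il13ra2, Il21r, Epor, Csf3r and Retnla. Without them, 25 of 91 genes were called higher and 2 lower, with a median of 0.54, where 6.21% and 3.53% of all genes left by the same rule were called and their median was 0.05.

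Of the 35 ligands listed, 12 were tested, with 4 called higher and 1 called lower (7.58% and 3.64% of all genes) and a median log2 fold change of 1.57. Without Il6, Il11 and Tslp, 2 of 9 were called higher and 1 lower, with a median of 0.71. All 5 belonged to the interleukin 6 family and leptin. Lep, the adipocyte hormone leptin, was at 0.180, 0.373 and 2.04 CPM in the CTL libraries and at 10.3, 32.4 and 33.0 CPM in Nelfb KO replicates 1, 2 and 3 (log2 fold change 5.26, SE 0.88, limma, adjusted p = 0.014). It was higher in CTL replicate 3 than in the other CTL libraries but far below all Nelfb KO libraries. Lif rose from 0.980 to 2.62 CPM in CTL to 6.28 to 10.7 CPM in Nelfb KO libraries (log2 fold change 2.26, limma, adjusted p = 0.018). Il11 went from 0.280 to 0.612 CPM to 1.67 to 1.80 CPM, with a CTL mean of 0.418 CPM that was under the filter of 0.448 CPM.

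Interleukin 6 itself was near the floor. Il6 had 3 reads in the 3 CTL libraries together and 104 in the Nelfb KO libraries, a ratio of 40.3 per depth with an exact 95% interval of 13.4 to 199 from rounded reads, which covers counting error only. Ctf1, the family member cardiotrophin 1, fell by 2.003 on the log2 scale, from 2.75 to 3.83 CPM in CTL to 0.490 to 1.16 CPM in Nelfb KO libraries (limma, adjusted p = 0.019). Among growth hormone, haematopoietic and common chain ligands 0 of 4 tested were called (11.2% of all genes were, in either direction). Thpo, the most abundant of them in the CTL libraries, overlapped between the groups (0.442 to 3.08 and 0.524 to 2.47 CPM). Il7, named after its values were seen, was higher in all 3 Nelfb KO libraries without passing the test (limma, adjusted p = 0.068). Of 10 ligands of the interferon, interleukin 10 and interleukin 12 groups only Il10 had a row. It had no reads in CTL and 0.0474, 0.466 and 0.734 CPM in Nelfb KO replicates 1, 2 and 3, too few for the test.

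Among the receptors, 10 of 33 tested were called higher and 0 lower (7.58% and 3.64% of all genes), and their median log2 fold change was 1.02. Without Il13ra2, Il21r, Epor and Csf3r, 8 of 29 were called higher, with a median of 0.78. Osmr, the oncostatin M chain that pairs with gp130, was at 78.1, 55.8 and 110.6 CPM in the CTL libraries and at 251.4, 272.4 and 256.1 CPM in Nelfb KO replicates 1, 2 and 3 (log2 fold change 1.73, SE 0.25, limma, adjusted p = 0.0095). Lepr, the leptin receptor, was at 0.306 to 0.722 CPM in the CTL libraries and at 11.7, 2.15 and 3.96 CPM in Nelfb KO replicates 1, 2 and 3 (log2 fold change 3.07, limma, adjusted p = 0.028), so that replicate 1 stood above the other Nelfb KO libraries. Il6st, the gp130 chain that the interleukin 6 family shares, was chosen for mention after its values were seen. It went from 263.5 to 356.6 CPM in CTL to 488.9 to 630.0 CPM in Nelfb KO libraries and, like Jak2, passed the adjusted p without reaching 2-fold (log2 fold change 0.97, limma, adjusted p = 0.023). Il6ra, the chain specific to interleukin 6 and likewise chosen, had a log2 fold change of the opposite sign, -0.97, and overlapped between the groups (61.6 to 114.1 and 31.1 to 73.2 CPM, limma, adjusted p = 0.13).

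Ghr, the growth hormone receptor that works through Jak2, rose from 253.0 to 322.8 CPM in CTL to 505.1 to 646.5 CPM in Nelfb KO libraries (log2 fold change 1.05, SE 0.18, limma, adjusted p = 0.014). The receptor chains of granulocyte-macrophage colony-stimulating factor (Csf2ra and Csf2rb) and the chain specific to interleukin 3 (Csf2rb2) were all called higher. The log2 fold change was 1.995 for Csf2ra, 3.18 for Csf2rb and 1.76 for Csf2rb2 (limma, adjusted p = 0.013, 0.0055 and 0.027), though Csf2rb and Csf2rb2 are close copies and may share reads. Il2rg, the common gamma chain that binds Jak3, rose from 1.21 to 1.94 CPM in CTL to 14.7, 5.88 and 8.65 CPM in Nelfb KO replicates 1, 2 and 3 (log2 fold change 2.64, limma, adjusted p = 0.010). Il2rg and these 3 chains were all highest in Nelfb KO replicate 1, as the myeloid sum was, and the part of the myeloid genes in them was not tested.

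The receptor chain of interleukins 4 and 13, Il4ra, was at 97.2, 80.5 and 159.2 CPM in the CTL libraries and at 290.3, 355.7 and 375.1 CPM in Nelfb KO replicates 1, 2 and 3 (log2 fold change 1.65, SE 0.27, limma, adjusted p = 0.013). Il13ra2, a decoy receptor for interleukin 13, had 4 reads in CTL and 129 in Nelfb KO libraries, a ratio of 37.5 (exact 95% interval 14.3 to 140). Il21r had 3 and 63 reads, a ratio of 24.4 (exact 95% interval 7.98 to 122). Both intervals come from rounded reads and cover counting error only. In contrast to Lepr and Il2rg, these 3 genes were lowest in replicate 1 among the Nelfb KO libraries. None of the 8 interferon, interleukin 10 and interleukin 12 receptors tested was called (11.2% of all genes were, in either direction), and Ifngr1, the most abundant of them, overlapped between the groups at 159.6 to 238.8 and 165.8 to 185.3 CPM. Ifnar1 and Il10ra, named after their values were seen, were higher in all 3 Nelfb KO libraries. Ifnar1 passed the adjusted p under the 2-fold limit (log2 fold change 0.78, limma, adjusted p = 0.013), and Il10ra did not pass it (2.72 on the log2 scale, limma, adjusted p = 0.059), with 41.8 CPM in Nelfb KO replicate 1 against 6.93 and 8.94 CPM in replicates 2 and 3.

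Negative regulators of the pathway were mixed, with 7 of 20 tested called higher and 0 lower (7.58% and 3.64% of all genes) and a median of 0.12, near that of all genes. SOCS proteins block the kinases or receptors, and some of them are induced by STATs. Socs5 rose from 21.5, 22.2 and 30.0 CPM in CTL to 77.9, 98.2 and 92.8 CPM in Nelfb KO replicates 1, 2 and 3 (log2 fold change 1.87, SE 0.18, limma, adjusted p = 0.0040). Socs3, a classical Stat3 target that inhibits gp130 signalling, was at 9.74, 6.25 and 18.0 CPM in the CTL libraries and at 29.5, 50.1 and 45.04 CPM in Nelfb KO replicates 1, 2 and 3 (log2 fold change 1.97, SE 0.41, limma, adjusted p = 0.025). Socs1 rose from 1.26 to 3.13 CPM to 4.32 to 7.28 CPM (log2 fold change 1.68, limma, adjusted p = 0.042). The 5 other SOCS genes were not called.

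The list of PIAS proteins and tyrosine phosphatases also held Usp18 and Sh2b3, which are neither. Of its 12 genes tested, 4 were called higher and 0 lower (7.58% and 3.64% of all genes). Ptpn1, a phosphatase of Jak2, rose from 32.5 to 40.0 CPM in CTL to 77.5 to 92.9 CPM in Nelfb KO libraries (log2 fold change 1.16, SE 0.15, limma, adjusted p = 0.0068). Ptpn6 and Ptprc, phosphatases best known from blood cells, had log2 fold changes of 3.82 and 2.74 (limma, adjusted p = 0.0056 and 0.033). Ptprc encodes CD45 and belongs to the myeloid list as well, with 71.3 CPM in Nelfb KO replicate 1 against 16.9 and 27.0 CPM in replicates 2 and 3. Usp18, an inhibitor of the interferon receptor, rose by 2.21 on the log2 scale (limma, adjusted p = 0.046). Of 12 adaptors and STAT partners 1 was called higher, a share near the 7.58% of all genes, namely Nmi, which binds STAT proteins (log2 fold change 1.12, limma, adjusted p = 0.021).

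Genes known as targets of Stat3, Stat5 or Stat6 were counted as lists, which says nothing of the activity of these factors. Of 34 such genes 27 were tested, 9 were called higher and 1 lower (7.58% and 3.64% of all genes), and the median was 1.04, or 0.94 without Retnla. From the Stat3 list Bcl3, Junb and Saa3 rose beside Socs3, with log2 fold changes of 1.26, 1.41 and 2.50 (limma, adjusted p = 0.037, 0.037 and 0.036). Vegfa, the endothelial growth factor, fell by 1.03 on the log2 scale (limma, adjusted p = 0.037), from 437.1, 569.8 and 586.0 CPM in CTL to 355.3, 218.0 and 221.2 CPM in Nelfb KO replicates 1, 2 and 3. The Stat3 list thus held calls in both directions, 4 higher and 1 lower of 15 tested (7.58% and 3.64% of all genes). Of the 6 fits without 1 library, Vegfa, Bcl3 and Junb were each called in 1, and Socs3 and Saa3 each in 2.

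From the Stat5 list, 2 of 10 genes tested were called higher (7.58% of all genes), Socs3 and Igf1. Igf1, the growth factor that growth hormone induces, was at 54.1, 36.0 and 37.2 CPM in the CTL libraries and at 238.2, 129.0 and 155.4 CPM in Nelfb KO replicates 1, 2 and 3 (log2 fold change 2.01, SE 0.27, limma, adjusted p = 0.0081). Cish and Socs2, which are classical Stat5 targets and were chosen for mention after their values were seen, were not called. Cish overlapped between the groups at 11.3 to 13.2 and 12.3 to 14.4 CPM. Socs2 was lower in all Nelfb KO libraries, at 18.1 to 27.6 CPM in the CTL libraries and 9.34 to 14.1 CPM in Nelfb KO (log2 fold change -0.89, limma, adjusted p = 0.054).

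In the Stat6 list 4 of 6 genes tested were called higher (7.58% of all genes), among them Il4ra, Mrc1 and Ccl11, with a list median of 2.21, or 2.43 without Retnla. Ccl11, the chemokine eotaxin 1, was at 4.69, 5.88 and 3.47 CPM in the CTL libraries and at 28.5, 24.97 and 21.7 CPM in Nelfb KO replicates 1, 2 and 3 (log2 fold change 2.43, SE 0.24, limma, adjusted p = 0.0042). Mrc1, the mannose receptor of macrophages, is 1 of the 16 myeloid markers given above. Mrc1 was at 133.0, 62.7 and 34.5 CPM in the CTL libraries and at 736.4, 363.5 and 635.5 CPM in Nelfb KO replicates 1, 2 and 3 (log2 fold change 3.07, limma, adjusted p = 0.014). The part of the myeloid genes in these lists was not tested.

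**Figure D5:**
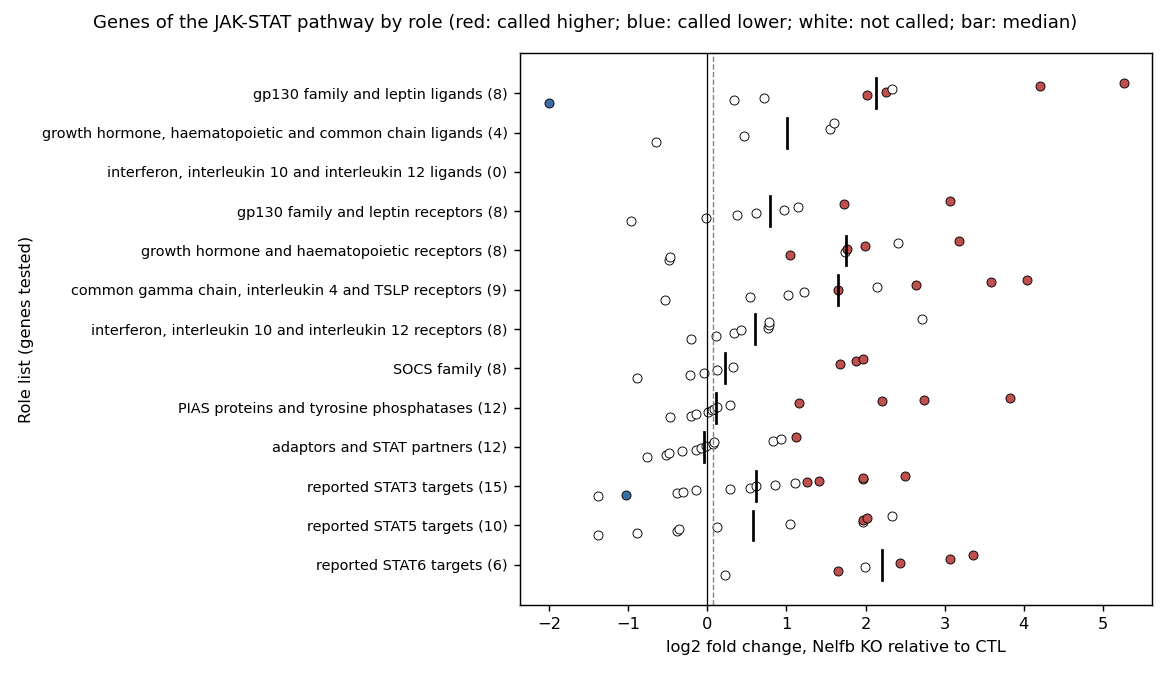
Log2 fold change in Nelfb KO relative to CTL cells of each tested pathway gene, in 13 role lists with the number of genes tested, where red and blue points were called higher and lower, white points were not called, black bars are list medians and the dashed line is the median of all genes tested (0.07). The receptor lists, and the ligand lists with genes tested, have medians to the right of that line, and the adaptors and STAT partners lie around 0.

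The genes most like Jak1 and Stat3 were found by Pearson correlation of log2 values over the 6 libraries, as a description of the same libraries that hold the genotype difference. For Jak1 they were Mlana (r = 0.9994), Tbc1d2b (0.9993), Furin (0.9992), Tmem9b (0.9991) and Cacna1d (0.9987). Mlana had a mean of 0.0113 CPM in CTL, below the floor, and 1.03 CPM in Nelfb KO cells. It passed the filter on low values only through the Nelfb KO libraries and so had to differ. Tbc1d2b and Furin rose with log2 fold changes of 0.999 and 0.76. For Stat3 they were Tle4 (r = 0.9974), Gm8113 (0.9961), Rgmb (0.9936), Vwa5a (0.9934) and Prdx6 (0.9932). Of 13577 protein-coding genes compared, 712 had a correlation over 0.95 with Jak1 and 234 with Stat3, so that close likeness to either pattern was common.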

How the data were processed

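RNA from 3 CTL and 3 Nelfb KO cultures was sequenced on an Illumina platform. The submitters' processing notes name STAR 2.7, Partek 9.0.20.0202 and mm10, while the study's methods name DESeq2 for the alignment and leave out genes under 10 reads. The counting, its annotation and its strand setting are not given in the sources used here. The authors deposited CPM with an offset of 0.0001 added to each. Only 69.3% to 72.0% of the values of at most 20 reads came out whole in reads (tolerance 0.02), so no count test across genes was used, and only the intervals of 3 genes near the floor rest on reads, rounded to whole numbers.

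The offset was subtracted, all CPM were scaled to a common depth of 22.3 times 1e+06 reads, and log2(value + 1) was fitted with limma (3.58.1, R 4.3.3) with an abundance trend for genes whose mean reached 10 reads. Fold changes on this scale understate those of low genes. Exact permutation tests were two-sided. Precision is limited by 3 libraries per group and, near the floor of 3 reads, by counting error. The main fit had been written for counts without a unit, and limma was kept once the unit was known to be CPM.

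Ensembl IDs, exon lengths and shared stretches of 50 bases came from GENCODE vM21 (GRCm38), which matched 17551 genes by name, and positions came from the authors' table. The members and the lists of pathway genes and markers were chosen with earlier results of these data known. Named genes were all members, every called pathway gene apart from 1 that is not reported here, the most abundant gene of role lists with none called, and the 5 protein-coding genes most like Jak1 and Stat3, with markers named by list. Il6st, Il6ra, Il7, Ifnar1, Il10ra, Cish and Socs2, the pathway genes tested through 1 group alone, and the markers Adgre1, Lyz2, Cd68, Aif1 and Lck given singly, were chosen after their values were seen. The alternatives were 2 other scalings, 2 other pseudocounts, 2 other filters, 2 other moderations of the variance, each library left out, and the replicate block. Another 2 were chosen after the data were seen.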

Additional observations from a re-analysis of the deposited data

How the results depend on the processing

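Jak1 was the only member called under both other scalings, both pseudocounts, both filters, both other moderations of the variance and each omission of 1 library. With a replicate block, 2 members were called, Jak1 and Stat2 (log2 fold change of Stat2 unchanged at 1.12, limma, adjusted p = 0.015), and 34 pathway genes. The numbers were not taken as pairing the samples, since the deviations of same-numbered libraries correlated at 0.515, -0.395 and 0.518 and not every library correlated best with its own number. A covariate for the split of libraries on the second principal component, chosen after the data were seen, also gave 2 members, Jak1 and Stat2 (adjusted p = 0.022), and 40 pathway genes, with 16.88% of all genes called. In that fit 5 members had an adjusted p of at most 0.05, Stat3 and Stat5a among them, both under 2-fold. With CTL replicate 3 and Nelfb KO replicate 1 both left out, 1 member and 47 pathway genes were called, with 27.05% of all genes called, and Stat2 and Stat3 had an adjusted p of 0.028 and 0.040, both under 2-fold. The pathway count lay between 7 (without Nelfb KO replicate 3) and 34 (without CTL replicate 3) with 1 library left out. Over all genes, 426, 758, 871 and 945 were called without Nelfb KO replicate 3, CTL replicate 2, CTL replicate 1 and Nelfb KO replicate 2, and up to 2479 in the other fits without 1 library.

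Directions turned only at members whose groups overlapped. Stat5b was at -0.065 with median-of-ratios scaling, -0.069 with upper quartile scaling, -0.042 with both libraries left out and -0.10 to 0.066 with 1 left out. Stat6 ranged from -0.025 to 0.27 and Jak3 from -0.43 to 0.0067 with 1 library left out, and Stat5a was at 0.055 with both left out. The cause was not tested.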
